A study of Homo sapiens with 8 samples.

Results

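Band 8q24.21 on hg19, chr8:127300001-131500000, holds the MYC gene and the PVT1 gene, and it was examined here as 840 tiles of 5 kb out of 619124 such tiles on 24 chromosomes. The band was chosen by its H3K9me3 coverage, which was far lower in drug-tolerant cells than in the parental cells they came from, so the size of that difference describes the choice and is no test of it. H3K9me3 is the histone mark of constitutive heterochromatin. It was measured by chromatin immunoprecipitation and sequencing (ChIP-seq) in PC9, an established line of human lung adenocarcinoma with an activating EGFR mutation. The DTP + TSA group was cells that had survived 8 days in 1 uM erlotinib, an inhibitor of the EGFR kinase, and then received 50 nM trichostatin A (TSA), an inhibitor of histone deacetylases, for 5 hours. The DTP group was such survivors, called drug-tolerant persisters, after 8 days in 1 uM erlotinib without TSA. The parental group was untreated PC9. Each group had 1 H3K9me3 library, so no difference could be set against a spread between replicates, and there are no tests. The 3 lists come from 1 cell line, and persisters are by definition a surviving part of the culture. The other 5 of the 8 samples, 2 of H3K4me3 and 3 of input, were not analysed here.

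H3K9me3 is written by the methyltransferases SUV39H1, SUV39H2 and SETDB1 and read by HP1 proteins, and broad runs of it mark silent, compacted chromatin. MYC encodes a transcription factor that drives growth and cell division. PVT1, its neighbour toward the telomere, gives a long noncoding RNA and holds several microRNA genes. The band is poor in coding genes and carries many enhancers that contact the MYC promoter, and it is often gained in copy number in lung and other carcinomas. In the order of the GRCh38 gene table, LRATD2, PCAT1, PRNCR1, CCAT1, CASC8, CCAT2, POU5F1B and CASC11 come before MYC, and LINC00824, CCDC26, GSDMC, CYRIB and ASAP1 come after PVT1. That table is of another build, so only MYC and PVT1 were placed, as rounded hg19 windows of chr8:128748001-128754000 and chr8:128806001-129114000.

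H3K9me3 covered 6.04% of the band in DTP + TSA, 7.80% in DTP and 25.8% in parental cells, as 254 kb, 328 kb and 1082 kb of 4200 kb. The parental value stood apart from both persister values. The covered length in DTP was 0.303 times that in parental cells, and in DTP + TSA it was 0.234 times the parental and 0.774 times the DTP length. Over all chromosomes the 3 libraries covered 5.79%, 5.32% and 4.05% in the same order, so the band went against the direction of the whole genome. In both persister libraries the band was above their share over all chromosomes, as it was in parental cells. In the 4 Mb on each side of the band together, 4.33% was covered in DTP + TSA, 4.82% in DTP and 7.33% in parental cells. DTP over parental was 0.658 there. The band therefore differed from its flanks mostly in how much was marked in parental cells, and less in what persisters showed.

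**Figure D1:**
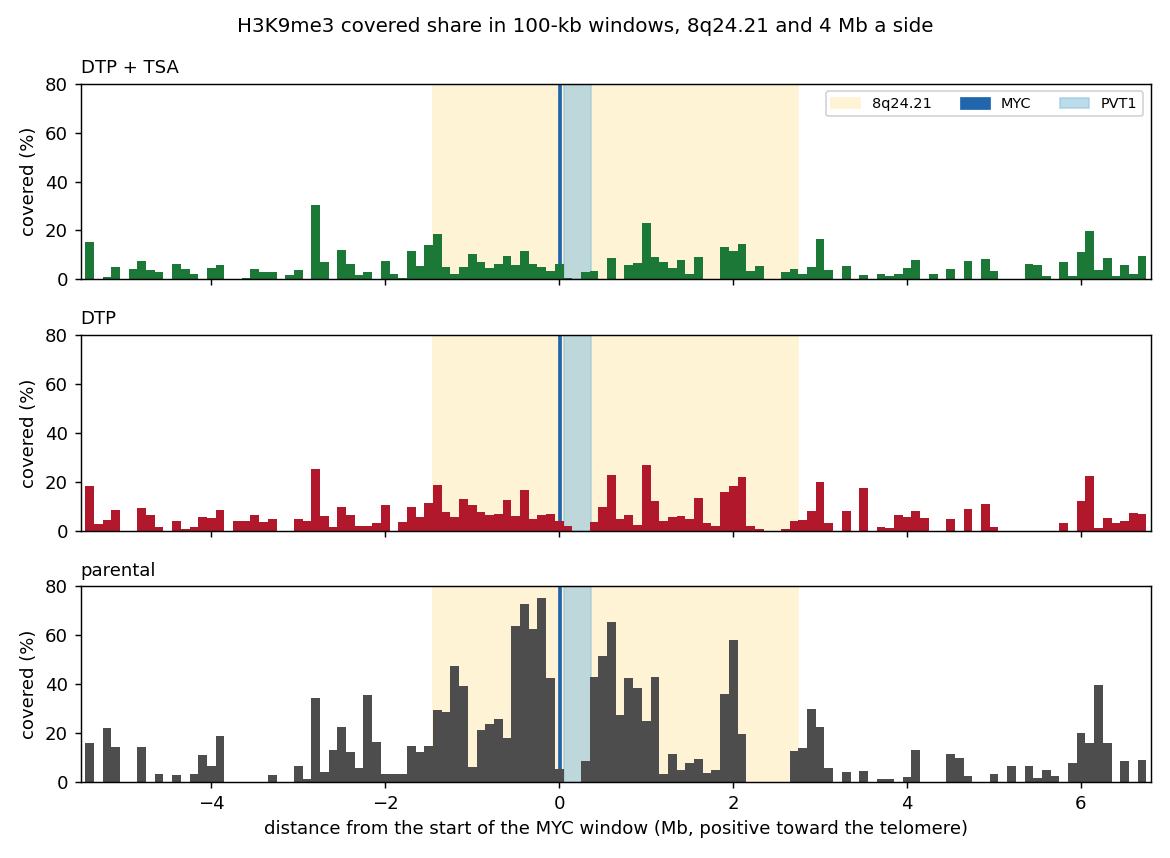
Share of each 100-kb window covered by H3K9me3 intervals (y axis, %) against the distance from the start of the MYC window (x axis, Mb), with DTP + TSA above, DTP in the middle and parental cells below. The shaded part is 8q24.21. Parental windows reach 75.4% before MYC and 65.6% beyond PVT1, with little in between, while the highest windows of the band are 23% in DTP + TSA and 27% in DTP.

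The parental mark lay in dense runs on both sides of MYC and PVT1. The genes themselves carried little of it, with no interval in MYC and 3.12% of PVT1 covered, against 4.05% over all chromosomes. The stretch from 100 to 600 kb before MYC was covered to 7.56% in DTP + TSA, 9.08% in DTP and 67.0% in parental cells. The 100 kb next to MYC on the same side were covered to 4.20%, 4.80% and 5.60%. The parental run therefore stopped short of MYC, and the last parental interval of at least 5 kb before the gene, chr8:128638001-128648200, ended 99.8 kb from it. On the other side the first 100 kb beyond PVT1 were covered to 3.60% in DTP + TSA, 4.80% in DTP and 55.4% in parental cells. From 100 to 600 kb beyond PVT1 the shares were 4.20%, 9% and 43.1% in the same order. Between 600 and 1000 kb the 3 libraries came closer to each other, at 5.05%, 6.45% and 17.9% before MYC and at 10.95%, 12.2% and 20.1% beyond PVT1. Farther out in the band the parental excess returned in some windows of 100 kb and not in others. In the same order, chr8:127500001-127600000 was covered to 2%, 5.6% and 47.6%, and chr8:130700001-130800000 to 11.4%, 18.4% and 58%. By contrast, chr8:130100001-130200000 was covered to 7.8%, 6% and 5%.

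**Figure D2:**
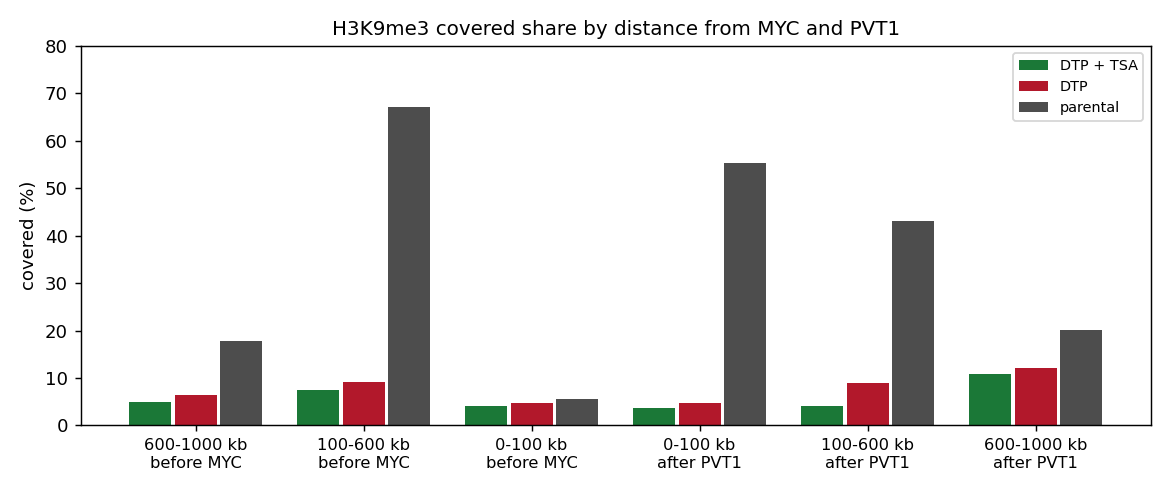
Covered share (y axis, %) by distance before the MYC window or beyond the PVT1 window, with bars for DTP + TSA, DTP and parental cells from left to right, 1 library each. The stretch from 100 to 600 kb before MYC holds the highest parental bar, at 67.0%, while the 100 kb next to MYC differ little between the libraries, at 4.20%, 4.80% and 5.60%. Parts of the band beyond 1000 kb are not drawn.

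At MYC itself the lists held an interval in DTP + TSA alone. It lay at chr8:128748601-128751200, was 2.6 kb long and had a mean value of 10.7, the authors' own signal averaged over the bins of an interval. The DTP and parental lists had no interval in the MYC window. This was an ordinary interval for its list, where 46.4% of intervals had a lower mean value and 52.8% were shorter. It was no longer present when each library was restricted to the 50% of its intervals with the highest mean values, or to as many of its strongest intervals as the parental list holds. The nearest intervals before MYC were chr8:128732001-128734000 in DTP + TSA, chr8:128732601-128734200 in DTP and chr8:128737001-128739400 in parental cells, 14.0 kb, 13.8 kb and 8.6 kb from the gene window.

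PVT1 had little of the mark in each library, and none of its intervals was shared. In DTP + TSA its window held chr8:128861801-128862400, of 0.6 kb and mean value 35.8, and chr8:129011601-129014600, of 3.0 kb and mean value 9.63. In DTP it held chr8:128845801-128847600, of 1.8 kb and mean value 10.4. In parental cells it held chr8:129091401-129101000, of 9.6 kb and mean value 5.90, at the telomeric end of the gene window. Coverage of the 308 kb window was 1.17%, 0.584% and 3.12% in the same order of libraries, against 5.79%, 5.32% and 4.05% over all chromosomes. The parental share was thus nearer to that of its whole list than the persister shares were. Lack of sharing was common elsewhere too. Over whole lists 69.5% of DTP + TSA and 65.8% of DTP intervals overlapped no parental interval. Between MYC and PVT1, DTP + TSA had chr8:128781601-128783400 and DTP had chr8:128781401-128784000, which overlap, where the parental list had none.

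Parental cells thus had a gap of 352 kb that takes in MYC and most of PVT1, chr8:128739401-129091400. Wholly within it DTP + TSA had 4 intervals with 8.0 kb and DTP had 2 with 4.4 kb. A longer parental gap, chr8:130830601-131431200 with 600.6 kb, lay near the telomeric end of the band. Wholly within that one DTP + TSA had 7 intervals with 18.2 kb and DTP had 4 with 7.4 kb. Both gaps of the parental mark thus held a few short intervals in persisters, of 0.6 to 4.2 kb. In both, persister coverage was below the share over all chromosomes, 5.79% in DTP + TSA and 5.32% in DTP. The longest persister gaps of the band lay within the longer parental gap, with 316.4 kb in DTP + TSA and 286.4 kb in DTP. A DTP gap of 282.2 kb, chr8:128847601-129129800, took in most of PVT1.

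**Figure D3:**
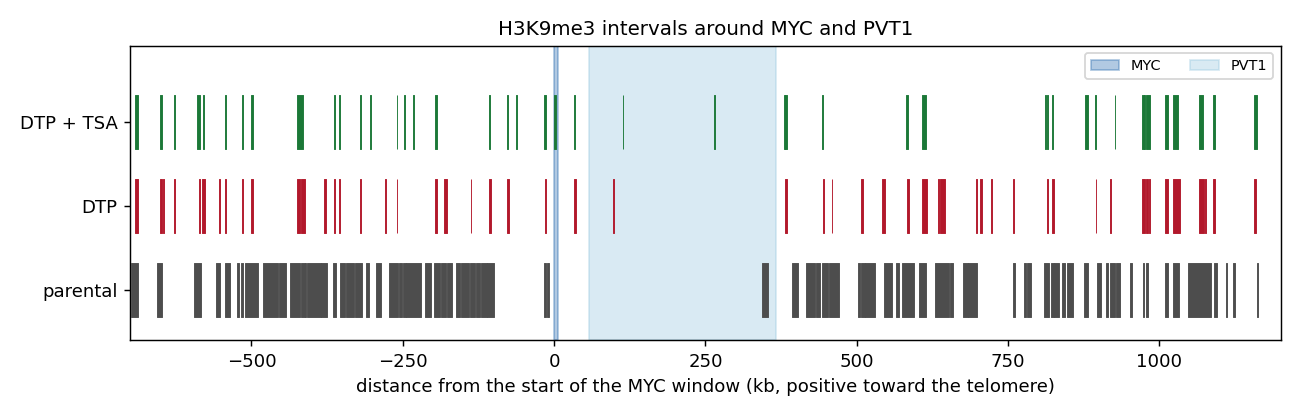
H3K9me3 intervals of DTP + TSA (top), DTP (middle) and parental cells (bottom) drawn to scale against the distance from the start of the MYC window (x axis, kb), with the MYC and PVT1 windows shaded and a thin outline that keeps the shortest intervals visible. Dense parental intervals end 99.8 kb before MYC and begin again 27.4 kb beyond PVT1, while both persister libraries show scattered short intervals.

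Between the libraries, the intervals of the band differed more in median length than in number, before whole lists are set beside them. There were 93 intervals in DTP + TSA, 105 in DTP and 126 in parental cells, with median lengths of 2200, 2400 and 7400 bp. Whole lists held 53000, 47866 and 23842 intervals in the same order, so in number too the band went against the whole lists. The longest was 9.2 kb in DTP + TSA, 12.0 kb in DTP and 37.2 kb in parental cells. Intervals over 10 kb numbered 0, 2 and 35. Those of up to 2 kb made up 47.3%, 36.2% and 5.56%. Over whole lists the median lengths were 2400 bp in DTP + TSA, 2400 bp in DTP and 3800 bp in parental cells, so the parental intervals of the band were long for their list while those of persisters were near the middle of theirs. The 5 longest in DTP were 7.8 to 12.0 kb and the 5 longest in DTP + TSA 6.6 to 9.2 kb, and each of them overlapped a parental interval.

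The 10 longest parental intervals of the band, of 17.8 to 37.2 kb, were each covered to less than 50% in both persister libraries. The longest, chr8:129795201-129832400, lay 681 kb beyond PVT1, and 17.2% of it was covered in DTP + TSA and 23.7% in DTP. The second, chr8:130709401-130737600 with 28.2 kb, was covered to 12.1% and 13.5%. Next were chr8:128267601-128291800 and chr8:129376801-129401000, which are equally long. The first of these had no overlap with either persister library, and the second had none with DTP + TSA and 45.5% with DTP. Of chr8:128503601-128527600, 24 kb long and 220 kb before MYC, 4.17% was covered in DTP + TSA and none in DTP. The interval of 22.2 kb at chr8:128340601-128362800 had no overlap with either. The other 4 were covered to between 0 and 29.2% in DTP + TSA and to between 11.3% and 33.7% in DTP.

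Of the 126 parental intervals, 50 overlapped DTP + TSA by at least 1 bp, or 39.7% (exact Clopper-Pearson 95% interval 31.1 to 48.8), and 61 overlapped DTP, or 48.4% (39.4 to 57.5). These 95% intervals, and those for overlap below, treat neighbouring intervals of 1 library as independent draws. They do not measure a spread between replicates. No overlap was found for 76 parental intervals in DTP + TSA (60.3%) and 65 in DTP (51.6%), where over whole lists 37.6% and 35.9% of parental intervals had none. In the flanks 55.8% had none in DTP + TSA and 54.8% none in DTP, so in DTP the flanks were above the band. DTP + TSA covered 75% or more of 10 of the 126 (7.94%) and DTP of 11 (8.73%). These shares were 13.5% and 16.3% in the flanks and 35.9% and 37.0% over whole lists. In length, 14.8% of the parental mark in the band was still covered in DTP + TSA and 20.2% in DTP, against 48.9% and 50.3% over all chromosomes. The flanks were between these at 26.6% and 27.8%, and the rest of chromosome 8 was near the whole genome at 50.1% and 50.8%. As the band was chosen for this contrast, these shares describe it and were not tested.

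**Figure D4:**
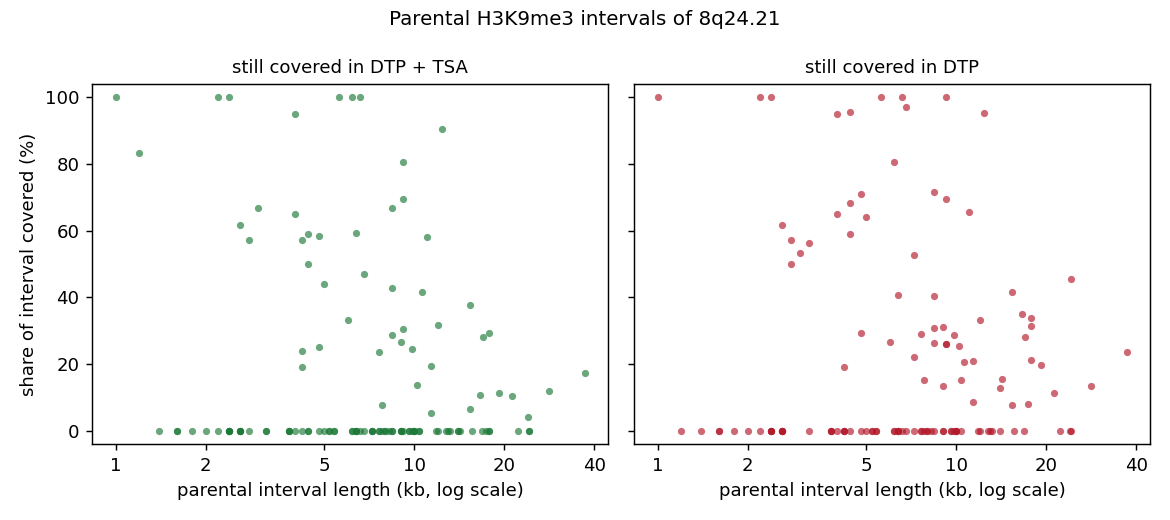
Share of each of the 126 parental intervals of the band that is covered in DTP + TSA (left) or DTP (right) on the y axis (%), against its length on the x axis (kb, log scale), 1 point per interval. 76 points in the left panel and 65 in the right lie at 0, and no parental interval over 16 kb has 50% or more of its length covered in either.

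The longest parental intervals kept the smallest share of their length in DTP + TSA within the band, which was not so over all chromosomes. Parental intervals over 16 kb kept 8.40% of their length in DTP + TSA and 17.8% in DTP within the band (15 intervals). Over all chromosomes those over 16 kb kept 64.8% and 66.1% (671 intervals), and without chromosome 19, which holds large zinc finger clusters, 56.5% and 58.0%. On chromosome 8 outside the band and its flanks the same class held 13 intervals and kept 85.4% and 85.7%. The median mean value of this class was 8.66 in the band, 21.5 on the rest of chromosome 8 and 11.2 over all chromosomes, and its part in the result was not tested. Intervals of 5 to 10 kb kept 16.9% and 21.0% in the band (48 intervals), against 44.5% and 45.7% over all chromosomes. In the band the share kept was thus lower in every length class than over all chromosomes, and the flanks were close to the band in the classes that hold most of their intervals. In the flanks, intervals of 2 to 5 kb kept 29.3% in DTP + TSA and 27.9% in DTP, against 24.8% and 29.7% in the band, and those of 5 to 10 kb kept 22.7% and 22.4%. The share kept was larger where the parental mean value was higher. Parental intervals with a mean value of up to 6.67 kept 5.92% in DTP + TSA and 8.77% in DTP within the band (28 intervals), and those above 10.7 kept 25.5% and 31.3% (11 intervals). Over all chromosomes these shares were 23.4% and 27.2% for the low values and 72.4% and 70.5% for the high ones, so the band was below the whole genome at both ends.

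**Figure D5:**
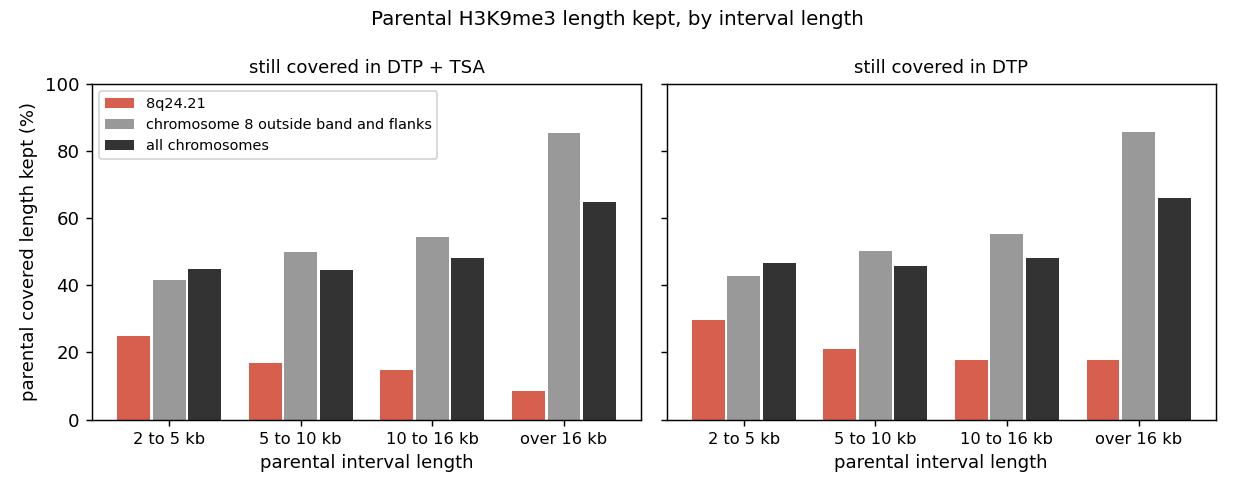
Share of parental covered length that is still covered (y axis, %) in DTP + TSA (left) and DTP (right) by parental interval length, for 8q24.21, for chromosome 8 outside the band and its flanks, and for all chromosomes. The class over 16 kb shows the widest spread in DTP, at 17.8% in the band, 85.7% on the rest of chromosome 8 and 66.1% over all chromosomes; intervals of up to 2 kb, of which the band has 7, are not drawn.

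A tile was called covered when at least 50% of it was, and lost or gained when it crossed that line between 2 libraries. Covered tiles numbered 38 in DTP + TSA, 55 in DTP and 219 in parental cells. Of the 219 parental tiles, 180 were lost in DTP, or 82.2%, where 52.9% of covered tiles over all chromosomes were lost, and 140 of the 219 had no covered base left (63.9%, against 32.6% over all chromosomes). In DTP + TSA 193 of the same 219 tiles were lost (88.1%, against 54.2%), and 156 had no covered base left (71.2%, against 34.1%). Both comparisons share the parental library, and nothing is read from these shares beyond the choice of the band. In the flanks 88 of 116 were lost in DTP, or 75.9%. With only the 50% of each list with the highest mean values, the order turned round, at 83.5% in the band and 86.3% in the flanks. Of the other 621 tiles 16 were gained in DTP (2.58%), near the 2.61% over all chromosomes and the 2.02% in the flanks. In DTP + TSA 12 were gained (1.93%, against 3.06% over all chromosomes and 1.82% in the flanks). Of all 840 tiles, 600 were covered in no library, 176 in parental cells alone, 22 in each of the 3, and 17 in DTP and parental cells without DTP + TSA. Covered in DTP alone were 9 tiles, in DTP + TSA alone 5, in both persister libraries 7, and in DTP + TSA and parental cells 4. Of the 180 parental tiles lost in DTP, 4 were covered in DTP + TSA, or 2.22%, against 10 of 88 in the flanks (11.4%) and 12.7% over all chromosomes. This difference was not tested.

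Joined over gaps of up to 1 tile, the 180 lost tiles formed 58 blocks with 990 kb in all, scattered over the whole band. Before MYC lay 23 blocks with 530 kb, beyond PVT1 34 blocks with 450 kb, and at the end of PVT1 1 block of 10 kb. No block reached MYC. The longest, chr8:128555001-128650000 with 95 kb, ended 98 kb before MYC and was covered to 1.47% in DTP + TSA, 7.79% in DTP and 80.6% in parental cells. The second, chr8:128475001-128545000 with 70 kb, was covered to 6.29%, 1.71% and 84.9%. 2 blocks of 55 kb followed. The one at chr8:128270001-128325000, 423 kb before MYC, was covered to 2.18%, 2.18% and 85.5%. The other, chr8:129165001-129220000, 51 kb beyond PVT1, was covered to 1.09%, 4.36% and 90.5%. The remaining 6 of the 10 longest had 30 to 50 kb, and 6 of the 10 longest in all ended between 98 and 488 kb before MYC.

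Only tiles covered in parental cells can be lost, so breaks between blocks were partly built in, and nothing is read from them. The blocks were short and broken. Their median length was 10 kb and 26 of the 58 were a single tile, while 31 still held a DTP interval. Of their 116 edges 101 lay within 2.5 kb of a border of a parental interval, as the tile rule makes likely. In windows of 100 kb the difference between DTP and parental coverage ran from -69.0 to 4.4 points within the band. It was negative in 29 windows, positive in 10 and zero in 3. In the flanks it ran from -38.8 to 12.8 points, negative in 40 of 80 windows and positive in 26. The largest step between neighbouring windows was at position 128200000, where the difference was -5.6 points on the side of the centromere and -57.8 on the side of the telomere. There DTP coverage was 12.6% and 6.20% and parental coverage 18.2% and 64%, so most of the step was in the parental list. The next step by size, at position 134900000, was outside the band. Those that followed, at positions 130800000, 129700000, 128700000 and 128600000, were inside it. At 129700000 parental coverage went from 38.6% to 25.2% and DTP coverage from 2.2% to 27%, so there the DTP list changed more.

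At the start of the band parental coverage was higher inside than outside, and at its end each library differed little between the inside and the outside. The last 100 kb before the band were covered to 14.2% in DTP + TSA, 11.4% in DTP and 14.8% in parental cells, and the first 100 kb inside to 18.4%, 18.6% and 29.6%. At the far border the last 100 kb inside were covered to 4.20%, 4% and 12.8%, and the first 100 kb outside to 2.40%, 4.40% and 14%. The first intervals inside the band were chr8:127325401-127332200 in DTP + TSA, chr8:127325601-127332200 in DTP and chr8:127325801-127335000 in parental cells, which overlap one another. The last inside were chr8:131481201-131484000, chr8:131481201-131484400 and chr8:131431201-131444000, of which the first 2 overlap and the parental one lies apart. Among 1-Mb windows of chromosome 8 with at least 50 kb of parental coverage, the 4 that hold most of the band kept 12.6% to 30.5% of it in DTP. The other 28 kept 10.4% to 90.2%, with 5 under 30%, so low shares were also found elsewhere on the chromosome.

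The densest parental stretches held short intervals in persisters. In the 15 windows of 100 kb with over 30% parental coverage, DTP + TSA covered 0 to 13.4%, DTP 2.20% to 23% and parental cells 36.0% to 75.4%. Each of these windows held at least 1 DTP interval, and 1 held none of DTP + TSA. Of the intervals in them, 30 of 44 in DTP + TSA (68.2%) and 39 of 49 in DTP (79.6%) overlapped a parental interval. Over whole lists 30.5% and 34.2% did. As the windows were picked for high parental coverage, more overlap was built in, and nothing is read from it. Intervals in these windows had a median mean value of 15.3 in DTP + TSA, 11.4 in DTP and 7.85 in parental cells. These medians are not on a shared scale and were compared only within a list, since any scaling between libraries is not given in the sources used here. Within the DTP + TSA list the median was 13.2 in the band, 11.4 in the flanks and 11.1 over all intervals, within the DTP list 11.5, 10.9 and 10.3, and within the parental list 7.93, 7.78 and 8.22. By the median, intervals of the band were thus not lower than those of the flanks in any of the 3 lists. Weighted by length, the means were 13.8 and 14.0 in DTP + TSA, 12.9 and 11.8 in DTP, and 8.34 and 9.21 in parental cells, for band and flanks, so this order held in DTP and not in the other lists. Copy number was not measured, as it needs read depth that the lists do not carry, and its part in the result was not tested.

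Persister intervals of the band that overlapped a parental interval lay, for the larger part, wholly inside it. Of the 105 DTP intervals 67 overlapped a parental interval, or 63.8% (53.9 to 73.0), and 46 of those lay wholly inside one. The other 38 had no overlap, or 36.2%, against 65.8% over the whole list. Of the 93 DTP + TSA intervals 53 overlapped, or 57.0% (46.3 to 67.2), and 38 of those lay wholly inside. The other 40 had none, or 43.0%, against 69.5% over the whole list. Over whole lists 45.9% of the overlapping DTP intervals and 46.7% of the overlapping DTP + TSA intervals lay wholly inside a parental one. Borders coincided within 400 bp with a parental border for 32 of 134 in DTP (23.9%) and 28 of 106 in DTP + TSA (26.4%), against 38.8% and 37.9% over whole lists. The band was chosen for far higher parental coverage, and its parental intervals were long, with a median of 7400 bp against 3800 bp over the list. Shares of overlap, of intervals wholly inside and of shared borders depend on this choice, so they describe it and were not tested. A site present in each list, named after its values were seen, was chr8:129838801-129840000 in DTP + TSA, with the highest mean value of that list in the band, 95.4. DTP had chr8:129838601-129840200 there, at 61.4, also its highest in the band, and parental cells chr8:129838801-129843600 at 9.37. These mean values are not on a shared scale and are averages over unlike lengths, so they were not compared between libraries.

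With TSA most intervals of the band overlapped a DTP interval, and the covered length was 254 kb in DTP + TSA and 328 kb in DTP. Counted in units of 5 kb, the ratio of 0.774 had a 95% interval of 0.525 to 1.13, which includes 1. Its width is set by the chosen unit, and units within an interval are not independent, so it is no test of a difference. The contrast of DTP + TSA with DTP is not independent of the choice of the band, which rested on low coverage in drug-tolerant cells. Of the 93 DTP + TSA intervals 69 overlapped DTP, or 74.2% (64.1 to 82.7), and of the 105 DTP intervals 68 overlapped DTP + TSA, or 64.8% (54.8 to 73.8). No overlap was found for 25.8% of DTP + TSA intervals, against 33.7% over the whole list and 34.7% in the flanks. Of DTP intervals 35.2% had none in DTP + TSA, against 28.4% over the whole list and 39.5% in the flanks. Borders of overlapping intervals coincided within 400 bp for 95 of 138 (68.8%), against 64.3% over whole lists. Of the 55 tiles covered in DTP, 26 were lost with TSA, or 47.3%, where 31.8% were lost over all chromosomes and 34.5% in the flanks. No covered base was left in 13 of the 55, or 23.6%, against 11.7% over all chromosomes. Of 785 other tiles 9 were gained, or 1.15%, against 1.84% over all chromosomes. Whether the band differs from the genome in this was not tested. When each list kept as many of its strongest intervals as the parental list holds, the lost share was 43.8% in the band (14 of 32) and 50% in the flanks (14 of 28). With the 50% of each list with the highest mean values it was 40.6% (13 of 32) and 35.7% (10 of 28). With longer intervals only it was 48.1% (25 of 52) and 38.2% (21 of 55). With intervals within 5 kb joined it was 46.9% (30 of 64) and 34.8% (24 of 69). These shares rest on few tiles.

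Per length, DTP + TSA and DTP differed about equally on both sides of the genes. Beyond PVT1, where the zone has 2386 kb, 5.98% was covered in DTP + TSA and 8.04% in DTP, a ratio of 0.743. Before MYC, where it has 1448 kb, 7.11% and 9.07% were covered, a ratio of 0.784. By windows of 100 kb, DTP + TSA was below DTP in 28 of 42, above in 11 and equal in 3, with differences of -14.4 to 4.8 points. The lowest was at chr8:129300001-129400000, covered to 8.60% in DTP + TSA, 23% in DTP and 65.6% in parental cells. Its neighbour toward the centromere, chr8:129200001-129300000, was covered to 0, 9.80% and 51.6%. Only 1 parental window among those over 30%, that last one, had no DTP + TSA coverage. In covered length, 138 kb of the band was shared by the 3 libraries and 842 kb was found in parental cells alone. Of the 863 kb of parental mark that DTP lacked, DTP + TSA covered 21.6 kb, or 2.5%. In the flanks it covered 41 of 424 kb, or 9.68%.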

How the data were processed

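The members, zones and comparisons were chosen with earlier results of these data known. The submitters' processing notes list BWA and SICER as tools and hg19 and dm3 as builds. Which library served as control, the calling threshold and any scaling: not given in the sources used here. Each H3K9me3 library has 1 list of enriched intervals on a grid of 200 bp with a summit value and a mean value, which are the authors' signal, per the file headers. Bin numbers (another quantity, about 32 bp a bin) were deposited with them. The lists hold 53000 (DTP + TSA), 47866 (DTP) and 23842 (parental) intervals without totals of reads. Depth is therefore unknown, and it can change both lengths and numbers of intervals.

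Coverage was computed on the 200 bp grid, with 1-based positions, in tiles of 5 kb, windows of 100 kb and rounded windows for MYC and PVT1. An overlap was at least 1 bp. Shares of intervals carry exact Clopper-Pearson 95% intervals, which treat intervals of 1 library as independent draws and measure no spread between replicates. The rule for named intervals took the 10 longest lost blocks and parental intervals, the 5 longest of each other list, those in the gene windows and those next to the band's borders; the site with the highest mean value was named after its values were seen. Code was tested on simulated intervals, where 9 of 9 checks returned the known answer. The cytoband table came with circlize 0.4.16 (R 4.3.3). Tables and figures were made in Python 3.11.15 with pandas 2.3.3, numpy 2.4.6, matplotlib 3.10.9 and scipy 1.17.1. Alternatives were other tile sizes and thresholds, stronger or longer intervals only, and joined intervals. Gene names followed the GRCh38 RefSeq table. No sequence was printed.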

Additional observations from a re-analysis of the deposited data

How the results depend on the processing

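No paired analysis was possible because each group had 1 library. A covered length ratio was taken to have moved when it left the exact 95% binomial interval of its main value, counted in units of 5 kb, and a tile count when it changed by more than 1.5 times; 83 alternatives were run, 45 stayed within these limits and 38 did not, and no ratio crossed 1. The intervals of the main DTP + TSA over DTP ratios themselves include 1, at 0.525 to 1.13 in the band and 0.638 to 1.26 in the flanks. Their width is set by the unit of 5 kb, so they served as limits for the settings and not as tests. The causes were not tested beyond the construction of each setting.

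When each list kept as many of its strongest intervals as the parental list holds (equal numbers), the DTP over parental ratio was 0.183 in the band and 0.341 in the flanks, and DTP + TSA over parental 0.139 and 0.228. Keeping the 50% of each list with the highest mean values (the stronger 50%) gave 0.413 for DTP over parental and 0.328 for DTP + TSA over parental in the band, and intervals of at least the pooled median length of 2600 bp gave 0.151 for the second. Under these 2 settings by mean value the shares of covered parental tiles lost in DTP in band and flanks were 88.6% and 87.1% with equal numbers and 83.5% and 86.3% in the stronger 50%, where the order of band and flanks turned round.

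Tile counts follow tile size and threshold by construction. In DTP against parental cells, lost tiles numbered 81 in the stronger 50%, 435 at 2 kb, 94 at 10 kb and 105 when a tile had to be fully covered, and gained tiles 7 with equal numbers, 57 at 2 kb, 6 at 10 kb, 48 with any covered base and 2 when fully covered. In DTP + TSA against DTP, lost tiles numbered 14 with equal numbers, 13 in the stronger 50%, 75 at 2 kb, 10 at 10 kb, 55 with any base and 8 fully covered, and gained tiles, in the same order of settings, 1, 1, 30, 2, 29 and 2. In DTP + TSA against parental cells, lost tiles numbered 84 in the stronger 50%, 472 at 2 kb, 101 at 10 kb and 112 fully covered, and gained tiles 3 with equal numbers, 7 in the stronger 50%, 49 at 2 kb, 5 at 10 kb, 45 with any base and 3 fully covered. Depth is unknown and limits every count.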
